A study of Mus musculus with 9 samples.

Results

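Integrins are the main receptors by which cells hold on to the matrix around them, and 10 of their subunits were followed in mouse NPK prostate cancer cells: Itga2, Itga3, Itga5, Itga6, Itgav, Itgb1, Itgb3, Itgb4, Itgb5 and Itgb7. They are 10 of the 12842 genes in the table of expression values. Itgb7 was taken in because its level was much higher after silencing of Nsd2, so it was chosen by its 6 log2 values in control and silenced cells, and it is described without a test in every comparison. The other 9 were taken as subunits of the same family, with earlier results of these libraries known.

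An integrin is a pair of an alpha and a beta subunit, and the pair decides which ligand is bound. Collagens, laminins and proteins that carry the RGD tripeptide, such as fibronectin and vitronectin, are bound by different pairs, and the beta tail links the receptor through talin and kindlin to actin and to focal adhesion kinase. In prostate epithelium, laminin-binding integrins anchor basal cells to the basement membrane, and the beta subunit encoded by Itgb7 is known mainly from leukocytes, where it serves in homing to the gut.

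RNA-seq profiles of cultured cells fell into 3 groups of 3 libraries each, from control cells, from cells with shRNA-mediated silencing of Nsd2 (shNsd2) and from cells given a compound labelled MCTP. Nsd2 encodes a histone methyltransferase, and the comparisons address how its silencing and the compound change expression. The libraries were made from polyadenylated RNA, and their depth is unknown, as only log2 values are given. Nothing in the labels says whether replicates came from separate cultures, so p-values measure only the spread between libraries, which may be technical.

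All 3 groups share the genotype of NPK mice, a model of prostate cancer that carries the inducible recombinase CreERT2, active in prostate epithelium, and the R26R-YFP reporter among its alleles. Lung metastases of such mice gave rise to the lines, and RPMI with serum was the culture medium. The labels of the MCTP libraries number the compound 39, 40 and 41, with 1 library each, and the study describes only MCTP-39, as a putative NSD2 inhibitor whose action on the enzyme in NPK cells was not tested here. Dose and duration of the treatment of NPK cells were not given in the sources used here. For shNsd2 the titles name Nsd2, whereas the source names give Nsd2, Nsd3 and Nsd4 for libraries 1, 2 and 3. The study silenced genes with pLKO.1 lentiviral shRNA and used a shRNA against luciferase as control, but the labels do not say whether these control cells carried it.

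Nsd2, listed under its earlier symbol Whsc1, checks the labels. Its log2 level was 12.48, 12.43 and 12.42 in the control libraries, 12.15, 12.21 and 12.07 in the MCTP libraries and 11.56, 11.61 and 11.68 in the shNsd2 libraries. The groups did not overlap, with shNsd2 lowest and MCTP in between. An exact permutation test of 3 libraries against 3 cannot give a p below 0.1, so calls below come from limma fitted across all genes, and a gene is said to have risen, fallen or been called when its Benjamini-Hochberg adjusted p was under 0.05. Whsc1 fell by 0.83 on the log2 scale with shNsd2 (standard error 0.0408, adjusted p = 2.26e-06) and fell by 0.30 with MCTP (standard error 0.0537, adjusted p = 0.00562).

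Some markers of epithelial and some of mesenchymal cells were abundant. Of 6 epithelial markers all were in the table, with Krt8 the most abundant at a log2 level of 16.28 ± 0.0736 in control cells (SD, n = 3), but Epcam, at 3.55 ± 0.0060, lay below the filter on low values of 3.78. All 6 mesenchymal markers were present too, from Vim at 17.21 ± 0.0533 down to Twist1 at 5.72. Among markers of the prostate luminal lineage Hoxb13 and Tmprss2 were listed at 10.28 and 6.89 in control cells, while Pbsn has no row in the table analysed here. Krt15 was the most abundant of 3 basal markers listed, and Krt5 has no row. Of 4 endothelial markers only Cdh5 was listed, at 3.50, and of 6 fibroblast markers Col1a1, Pdgfra and Dcn, at 8.20, 3.99 and 2.33.

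Leukocyte markers were checked because Itgb7 is best known from those cells. Of 14 markers 11 have no row in the table analysed here, among them Ptprc, Cd3e, Itgal and Itgam. The 3 that were listed are Itgb2, the most abundant, Cd68 and Coro1a, the last at 3.94 in control cells. Their summed level on the log2 scale was 8.14, 8.17 and 8.22 in control, 8.40, 8.28 and 8.40 in MCTP and 8.00, 7.96 and 7.97 in shNsd2 libraries. The sum was lowest in the shNsd2 libraries and highest in the MCTP libraries, but its genes did not move together. With shNsd2 Itgb2 fell by 0.51 (adjusted p = 3.01e-05), whereas Cd68, a marker of macrophages, rose by 0.23 (adjusted p = 0.00227). Coro1a rose by 0.08 (adjusted p = 0.0232), a call lost without control library 2 (adjusted p = 0.0522), without shNsd2 library 1 (adjusted p = 0.0821) and after correction of every library for GC content (adjusted p = 0.559). With MCTP Cd68 rose by 0.73 (adjusted p = 6.88e-04), and the log2 difference of Itgb2 was -0.19 (adjusted p = 0.0682). Itgb2 was called lower after GC correction, at -0.25 (adjusted p = 0.0107), and without MCTP library 1, at -0.26 (adjusted p = 0.0365). The part of these markers in the level of Itgb7 was not tested. The RNA is from bulk cultures, in which fewer cells with a transcript and less of it per cell cannot be told apart.

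Libraries differed in how their values follow the GC content of transcripts. Over 12513 genes, the Spearman correlation of a library's deviation from the mean of all 9 libraries with GC content was -0.607, -0.331 and -0.187 in the control libraries, 0.454, -0.317 and 0.564 in the MCTP libraries and 0.110, 0.131 and -0.289 in the shNsd2 libraries. All control libraries were thus below 0, control library 1 the lowest, and MCTP library 2 and shNsd2 library 3 had the opposite sign to the others of their group. Each member is therefore given also after a correction of every library for GC content, and calls that rest on a single library are named with the value without it. Leaving out a library moved the calls of all genes too. They numbered 4340 to 6018 with shNsd2, 2046 to 7384 with MCTP and 3391 to 7781 between the treatments. A count that changes with a library left out is therefore not read as particular to the members or a list. The correction also raised the share of all genes called, in every range of GC content and every comparison. With MCTP, 20.7% of genes under 45% GC rose and 23.9% fell after it, against 4.59% and 28.2% before. A call gained after correction is thus not particular to a gene named here. The part of GC content in the uncorrected differences was not tested.

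Levels of different genes were compared per transcript length, as the log2 level minus the log2 of the length of the principal transcript in kb. On this scale the control cells held most of Itga6 (13.05 ± 0.0145, SD, n = 3), Itgb1 (13.01 ± 0.0560) and Itga3 (12.84 ± 0.0619), the subunits of the laminin receptors and their common beta partner. Itga6 and Itgb1 overlapped in their libraries and cannot be ordered. Next on the same length-scaled measure came Itga5 at 10.98 ± 0.0552, Itgb4 at 10.83 ± 0.0830, Itgav at 10.32 ± 0.105 and Itgb5 at 10.08 ± 0.0693. Itgb3 followed at 9.32 ± 0.0436, Itga2 at 8.33 ± 0.0669 and Itgb7 last at 7.99 ± 0.0572 per kb, and from Itgb1 downwards no neighbours in this order overlapped. Itgb7 transcripts were thus the scarcest of the 10 in control cells.

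The order changed in both treated groups. Per kb, Itga3 led in shNsd2 cells at 13.11 ± 0.0498, ahead of Itga6 at 12.73 ± 0.0630 and Itgb1 at 12.42 ± 0.0630, and the 3 did not overlap. In MCTP cells the length-scaled levels of the same 3 genes, 12.88 for Itga3, 12.68 for Itgb1 and 12.57 for Itga6, overlapped in turn. Itgb7 moved above Itga2 in both groups. Its level per kb was 9.11 ± 0.0254 in shNsd2 cells, next to Itgb3 at 9.19 ± 0.0167 and apart from it in every library, and 8.70 ± 0.149 in MCTP cells.

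**Figure D1:**
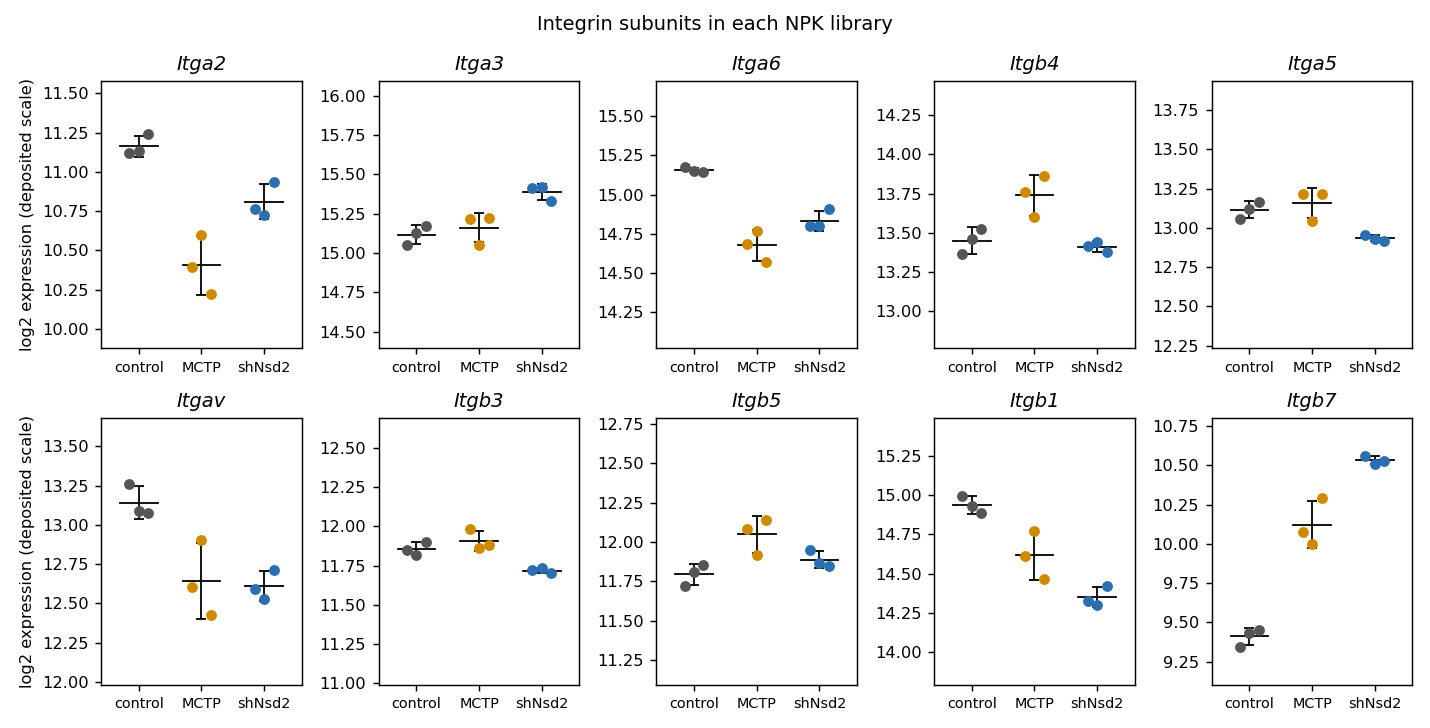
Log2 level of each of the 10 integrin subunits in control, MCTP and shNsd2 libraries, 1 dot per library, with a bar at the group mean and an error bar of 1 SD (n = 3); every panel spans the same range of log2 units. Itga2, Itga6, Itgav and Itgb1 lay lower in both treated groups than in control, and Itgb7, which was chosen for its rise with shNsd2, lay at 10.51 to 10.56 in shNsd2 against 9.35 to 9.45 in control libraries.

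Silencing of Nsd2 was accompanied by lower levels of most of the matrix-binding subunits. Itgb1 and Itgav fell most, Itga2 and Itga6 by less, Itga5 and Itgb3 by little, and Itga3 rose. Of the 9 subunits tested 7 were called, 1 higher and 6 lower, where 47.8% of all 12205 genes tested were called, 23.1% higher and 24.8% lower. Nothing is read from this count, since the choice of members used the same comparison. The median log2 fold change was -0.18 over the 9 subunits and 0.00 over all genes. All 10 members passed the filter on low values in each comparison, and all 7 calls held when any of the 6 libraries was left out. With the replicate number entered as a block, 6 calls held and that of Itgb3 was lost.

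With MCTP the subunits divided. Itga2, Itgav, Itga6 and Itgb1 fell, Itgb4 and Itgb5 rose, and Itga3, Itga5 and Itgb3 were not called. These are 6 of 9 called, 2 higher and 4 lower, where 35.2% of all 12216 genes tested were called, 18.0% higher and 17.2% lower. The median log2 fold change was 0.04 over the 9 subunits and -0.01 over all genes. This comparison shares its control libraries with that of shNsd2, so the fold changes of both are set side by side and not counted as support for each other. The count depended on single libraries: it was 2 without control library 1 or MCTP library 1, 3 without control library 2, control library 3 or MCTP library 3, and 6 without MCTP library 2. Over all genes the number called ranged from 2046 to 7384 with a library left out, against 4305 with all libraries.

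Itga2 encodes the alpha subunit of the main collagen receptor of epithelial cells. In GRCm38, the build of all coordinates given here, the gene (ENSMUSG00000015533.8) occupies bases 114833081 to 114932100 of chromosome 13, on the - strand, and its principal transcript has 30 exons and 7108 bases. The log2 level of Itga2 was 11.12, 11.13 and 11.24 in control, 10.40, 10.60 and 10.22 in MCTP and 10.77, 10.73 and 10.94 in shNsd2 libraries. All MCTP libraries were below all shNsd2 libraries, and these below all control libraries. Itga2 fell by 0.35 with shNsd2 (standard error 0.0589, adjusted p = 0.00131) and fell by 0.76 with MCTP (standard error 0.0939, adjusted p = 0.00121), the largest change with MCTP among the 9 subunits tested. After GC correction the log2 fold changes were -0.29 and -0.61.

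Itga3 and Itga6 encode alpha subunits of laminin receptors, and Itgb4 the beta subunit that pairs with Itga6 in hemidesmosomes, the plaques that fix epithelial cells to the basement membrane. Itga3 (ENSMUSG00000001507.9; chromosome 11, 95044474 to 95076801, - strand, 26 exons) had log2 levels of 15.05, 15.13 and 15.17 in control, 15.21, 15.05 and 15.22 in MCTP and 15.42, 15.42 and 15.33 in shNsd2 libraries. The shNsd2 libraries lay above all others, and control and MCTP libraries overlapped. Itga3 rose by 0.27 with shNsd2 (standard error 0.0466, adjusted p = 0.00147; 0.22 after GC correction). With MCTP its log2 difference was 0.05 (adjusted p = 0.618), and it turned to -0.04 under quantile normalization and to -0.05 after GC correction.

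Itga6 (ENSMUSG00000027111.8; chromosome 2, 71745616 to 71858416, + strand, 26 exons) had log2 levels of 15.17, 15.15 and 15.15 in control, 14.69, 14.77 and 14.57 in MCTP and 14.80, 14.80 and 14.91 in shNsd2 libraries. Every treated library was below every control library, and every MCTP library below every shNsd2 library. Itga6 fell by 0.32 with shNsd2 (standard error 0.0423, adjusted p = 3.70e-04) and fell by 0.48 with MCTP (standard error 0.0651, adjusted p = 0.00178), with GC-corrected log2 fold changes of -0.30 and -0.47. The laminin-binding alpha subunits thus went opposite ways with shNsd2, Itga3 up and Itga6 down.

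Itgb4 (ENSMUSG00000020758.9; chromosome 11, 115974709 to 116008412, + strand, 40 exons) stood at log2 levels of 13.36, 13.46 and 13.53 in control, 13.76, 13.60 and 13.86 in MCTP and 13.42, 13.44 and 13.38 in shNsd2 libraries. The MCTP libraries were above all others, and control and shNsd2 libraries overlapped. Itgb4 rose by 0.29 with MCTP (standard error 0.0784, adjusted p = 0.0263; 0.19 after GC correction, adjusted p = 0.00721). This call held without MCTP library 2 (adjusted p = 6.30e-04), but the adjusted p was 0.0947, 0.0795 and 0.0501 without control library 1, 2 or 3 and 0.0973 and 0.0673 without MCTP library 1 or 3. With shNsd2 the log2 difference of Itgb4 was -0.04 (adjusted p = 0.515) and reached the threshold only after GC correction, at -0.11 (adjusted p = 0.0139). Exons of Itgb4 share 537 bases with the noncoding gene B230344G16Rik on the opposite strand, and those of Itgav share 634 bases with Gm13684. Neither noncoding gene has a row in the table analysed here, and whether reads were counted by strand was not given, so reads of these pairs cannot be told apart.

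Itga5, Itgav, Itgb3 and Itgb5 make up receptors for proteins with the RGD tripeptide. Itga5 is the alpha subunit of the classical fibronectin receptor (ENSMUSG00000000555.6; chromosome 15, 103344286 to 103366763, - strand, 30 exons). Its log2 level was 13.06, 13.12 and 13.17 in control, 13.21, 13.05 and 13.22 in MCTP and 12.95, 12.93 and 12.92 in shNsd2 libraries. The shNsd2 libraries were below all others and close together, and control and MCTP libraries overlapped. Itga5 fell by 0.18 with shNsd2 (standard error 0.0377, adjusted p = 0.00395), a change of small size, and fell by 0.24 after GC correction (adjusted p = 3.39e-05). With MCTP the log2 difference of Itga5 was 0.04 (adjusted p = 0.622), and it turned to -0.06 after GC correction.

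Itgav (ENSMUSG00000027087.5; chromosome 2, 83724397 to 83806916, + strand, 30 exons) is the alpha subunit shared by several vitronectin-binding receptors, those with Itgb3 and Itgb5 among them. It was listed at log2 levels of 13.26, 13.09 and 13.07 in control, 12.61, 12.90 and 12.42 in MCTP and 12.59, 12.53 and 12.72 in shNsd2 libraries. Both treated groups lay below control in every library and overlapped with each other. Itgav fell by 0.53 with shNsd2 (standard error 0.0623, adjusted p = 2.08e-04) and fell by 0.50 with MCTP (standard error 0.117, adjusted p = 0.0160), and the GC-corrected log2 fold changes were -0.46 and -0.35. The MCTP call was lost without control library 1 (adjusted p = 0.0575) and without MCTP library 1 (adjusted p = 0.0695).

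Itgb3 (ENSMUSG00000020689.3; chromosome 11, 104608000 to 104670476, + strand, 15 exons), the beta subunit of the vitronectin receptor, had log2 levels of 11.85, 11.82 and 11.90 in control, 11.98, 11.86 and 11.88 in MCTP and 11.72, 11.73 and 11.70 in shNsd2 libraries. The shNsd2 libraries were lowest, and the other groups overlapped. Itgb3 fell by 0.14 with shNsd2 (standard error 0.0350, adjusted p = 0.0108; -0.16 after GC correction), and its log2 difference with MCTP was 0.05 (adjusted p = 0.459; 0.0015 after GC correction). Its call with shNsd2 was lost when limma was given the replicate number as a block (adjusted p = 0.0506). Itgb5 (ENSMUSG00000022817.8; chromosome 16, 33829665 to 33949338, + strand, 15 exons), another beta partner of Itgav, had log2 levels of 11.72, 11.81 and 11.85 in control, 12.08, 11.92 and 12.14 in MCTP and 11.95, 11.86 and 11.85 in shNsd2 libraries. Here the MCTP libraries were above control, and shNsd2 overlapped with both groups. Itgb5 rose by 0.25 with MCTP (standard error 0.0706, adjusted p = 0.0279; 0.16 after GC correction, adjusted p = 0.00936). That call held without MCTP library 2 (adjusted p = 6.08e-04), but the adjusted p was 0.0996, 0.0813 and 0.0572 without control library 1, 2 or 3 and 0.107 and 0.0741 without MCTP library 1 or 3. With shNsd2 the log2 difference of Itgb5 was 0.09 (adjusted p = 0.119; 0.04 after GC correction).

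Itgb1 is the common beta subunit, the partner of Itga2, Itga3, Itga5, Itga6 and Itgav (ENSMUSG00000025809.8; chromosome 8, 128685654 to 128733200, + strand, 16 exons). Its log2 level was 15.00, 14.93 and 14.88 in control, 14.61, 14.77 and 14.46 in MCTP and 14.33, 14.30 and 14.42 in shNsd2 libraries. The groups did not overlap: control was highest, MCTP in between and shNsd2 lowest. Itgb1 fell by 0.59 with shNsd2 (standard error 0.0465, adjusted p = 2.47e-05), the largest change with shNsd2 among the 9 subunits tested, and fell by 0.52 after GC correction. With MCTP it fell by 0.32 (standard error 0.0839, adjusted p = 0.0228), and fell by 0.20 after GC correction (adjusted p = 0.00738). The MCTP call held without MCTP library 2 (adjusted p = 4.14e-04), but the adjusted p was 0.0822, 0.0748 and 0.0560 without control library 1, 2 or 3 and 0.0838 and 0.0511 without MCTP library 1 or 3.

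Itgb7 (ENSMUSG00000001281.3; chromosome 15, 102215995 to 102231944, - strand, 15 exons) encodes the beta subunit that pairs with the products of Itga4 and Itgae. Its log2 level was 9.35, 9.43 and 9.45 in control, 10.08, 10.001 and 10.29 in MCTP and 10.56, 10.51 and 10.53 in shNsd2 libraries. The groups did not overlap, with shNsd2 highest and MCTP in between, the reverse of Itgb1. The difference of the group means was 1.12 on the log2 scale with shNsd2, or 2.18-fold, and 0.71 with MCTP, or 1.64-fold. After GC correction the log2 differences were 1.06 and 0.61. When 1 library was left out at a time, the log2 difference with shNsd2 ranged from 1.09 to 1.14 and that with MCTP from 0.63 to 0.77. These values describe Itgb7 and test nothing, since it was chosen for its rise with shNsd2 and the MCTP comparison uses the same control libraries.

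Few of the known partners of Itgb7 could be followed. Neither alpha partner, Itga4 or Itgae, has a row in the table analysed here, nor has Madcam1, which encodes its gut ligand. Vcam1, which encodes a vascular adhesion molecule bound by the Itga4 pairs, had log2 levels of 8.21, 8.10 and 8.19 in control, 7.88, 7.78 and 7.87 in MCTP and 7.42, 7.46 and 7.44 in shNsd2 libraries. Cdh1, which encodes E-cadherin, the ligand of the Itgae pair, had log2 levels of 11.70, 11.79 and 11.84 in control, 11.46, 11.44 and 11.41 in MCTP and 11.58, 11.58 and 11.56 in shNsd2 libraries. No groups overlapped for either gene, and control was highest for both. Vcam1 fell by 0.73 with shNsd2 (adjusted p = 5.86e-06) and fell by 0.33 with MCTP (adjusted p = 0.00515). After GC correction its log2 difference with MCTP was -0.19 and was not called (adjusted p = 0.0574). Cdh1 fell by 0.20 with shNsd2 (adjusted p = 0.00368) and fell by 0.34 with MCTP (adjusted p = 0.00325).

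Itgb7 lies in a gene-rich stretch of chromosome 15, with 11 other genes of the table within 100 kb. Of these, 5 rose and 1 fell with shNsd2, where 23.1% of all genes rose and 24.8% fell. With MCTP 2 rose and 2 fell, where 18.0% and 17.2% of all genes rose and fell. The part of position in these differences was not tested. The nearest is Zfp740, which encodes a zinc finger protein and ends 389 bp from Itgb7 on the + strand (102203249 to 102215606). Zfp740 had log2 levels of 11.73, 11.70 and 11.77 in control, 11.64, 11.56 and 11.49 in MCTP and 11.88, 11.92 and 11.92 in shNsd2 libraries, without overlap. It rose by 0.18 with shNsd2 (adjusted p = 0.00292) and fell by 0.17 with MCTP (adjusted p = 0.0488), where Itgb7 was higher than in control. On the side of the Itgb7 start, Rarg, which encodes a retinoic acid receptor, lies 2994 bp away (102234938 to 102257517, - strand), and its log2 differences were 0.10 with shNsd2 (adjusted p = 0.179) and 0.00 with MCTP (adjusted p = 0.992). Csad, which encodes an enzyme of taurine synthesis, lies 11271 bp away (102176999 to 102204724, - strand), fell by 0.29 with shNsd2 (adjusted p = 3.36e-04) and rose by 0.54 with MCTP (adjusted p = 0.00146).

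The other 8 neighbours had log2 differences of at most 0.27 in size in both comparisons with control. Mfsd5, which encodes a transporter, was called in both, at 0.24 with shNsd2 (adjusted p = 0.00148) and 0.27 with MCTP (adjusted p = 0.0258). Espl1, the gene of separase, Myg1 and Spryd3 rose with shNsd2, by 0.21, 0.23 and 0.14 (adjusted p = 0.00135, 0.00589 and 0.0315), and were not called with MCTP. Soat2, which encodes a cholesterol-esterifying enzyme, fell by 0.20 with MCTP (adjusted p = 0.0152), at log2 levels of only 4.24 to 4.53 in the 9 libraries. Tenc1, Igfbp6 and Pfdn5 were called in neither comparison.

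The direct comparison of shNsd2 with MCTP cells asks whether the treatments differ, and uses no control library. Itga2 and Itga3 were higher in shNsd2 cells, and Itga5, Itgb1, Itgb3 and Itgb4 were lower. These are 6 of 9 subunits called, 2 higher and 4 lower, where 43.2% of all 12217 genes tested were called, 20.6% higher and 22.6% lower. The median log2 fold change was -0.16 over the 9 subunits and 0.01 over all genes. Itgb4 was the only subunit whose call held whichever of the 6 libraries was left out, at a log2 fold change of -0.33 (adjusted p = 0.00863, standard error 0.0703; -0.29 after GC correction). Itga2 differed by 0.40 (standard error 0.101, adjusted p = 0.0154; 0.32 after GC correction), and this call was lost without MCTP library 1 (adjusted p = 0.0627) and without shNsd2 library 3 (adjusted p = 0.0582). The level of Itgb7 was 0.41 higher in shNsd2 than in MCTP cells on the log2 scale, or 1.33-fold, and 0.45 higher after GC correction, given without a test.

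The other calls of the direct comparison were less stable. The log2 fold change was 0.23 for Itga3 (adjusted p = 0.0259), -0.22 for Itga5 (0.0174), -0.27 for Itgb1 (0.0348) and -0.19 for Itgb3 (0.0164). After GC correction the log2 fold changes were 0.27, -0.18, -0.32 and -0.16 in this order, and all 4 were called. More of all genes were called then too. Among those with 55% GC or more, 28.4% were higher and 30.1% lower, against 15.9% and 26.2% before. Before correction all 4 were called without MCTP library 2 or MCTP library 3 and lost without any of the other 4 libraries. Without MCTP library 1 or shNsd2 library 1, 2 or 3, the adjusted p was 0.0535, 0.0979, 0.105 and 0.0541 for Itga3 and 0.0733, 0.0560, 0.0688 and 0.0679 for Itga5. In the same order it was 0.102, 0.108, 0.118 and 0.0606 for Itgb1 and 0.0617, 0.0635, 0.0630 and 0.0709 for Itgb3. Itgb1 was not called under quantile normalization (adjusted p = 0.0961), nor Itga3 with every library centred on its median (adjusted p = 0.0572). Itga6 and Itgb5, at log2 differences of 0.16 and -0.16, missed the threshold (adjusted p = 0.0913 and 0.0855) and were called after GC correction, at 0.17 and -0.12 (adjusted p = 0.0290 and 0.0198), and without MCTP library 2 (adjusted p = 0.00760 and 0.00167). For Itgav the log2 difference was -0.03 (adjusted p = 0.847), and it turned to 0.10 without MCTP library 2 and to 0.01 without shNsd2 library 2, while it was -0.12 after GC correction (adjusted p = 0.137).

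The members also differ in the base composition of their transcripts, which the choice of members did not use. Itgav (43.5%), Itga2 (43.7%), Itgb1 (44.8%) and Itga6 (48.9%) have a GC content under 50%, and the other 6 lie between 52.1% for Itgb3 and 59.6% for Itgb4, with Itgb7 at 58.0%. The division at 50% was made after the values were seen. All 4 members under 50% fell with both shNsd2 and MCTP, and the same 4 were called lower after GC correction. Of the 5 tested members over 50%, 1 rose and 2 fell with shNsd2, and 2 rose and none fell with MCTP. After GC correction these were 1 and 3 with shNsd2 and again 2 and 0 with MCTP. Among all genes with a GC content under 45%, the median log2 fold change was -0.05 with shNsd2 and -0.20 with MCTP, 28.7% and 28.2% of them fell, and 7.10% and 4.59% rose. From 45% to 50%, where Itga6 lies, the median was -0.04 with shNsd2 and -0.06 with MCTP, 32.1% and 24.1% of the genes fell, and 16.2% and 13.1% rose. From 50% to 55% the median was 0.03 with shNsd2 and 0.05 with MCTP, 22.7% and 11.6% fell, and 29.6% and 24.6% rose. Among all genes with 55% or more, it was 0.06 with shNsd2 and 0.10 with MCTP, 16.8% and 7.58% fell, and 37.1% and 28.1% rose. With MCTP the log2 fold changes of Itga2, Itgav, Itgb1 and Itga6 were -0.76, -0.50, -0.32 and -0.48. After GC correction they were -0.61, -0.35, -0.20 and -0.47 in this order. The part of GC content in these values was not tested.

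**Figure D2:**
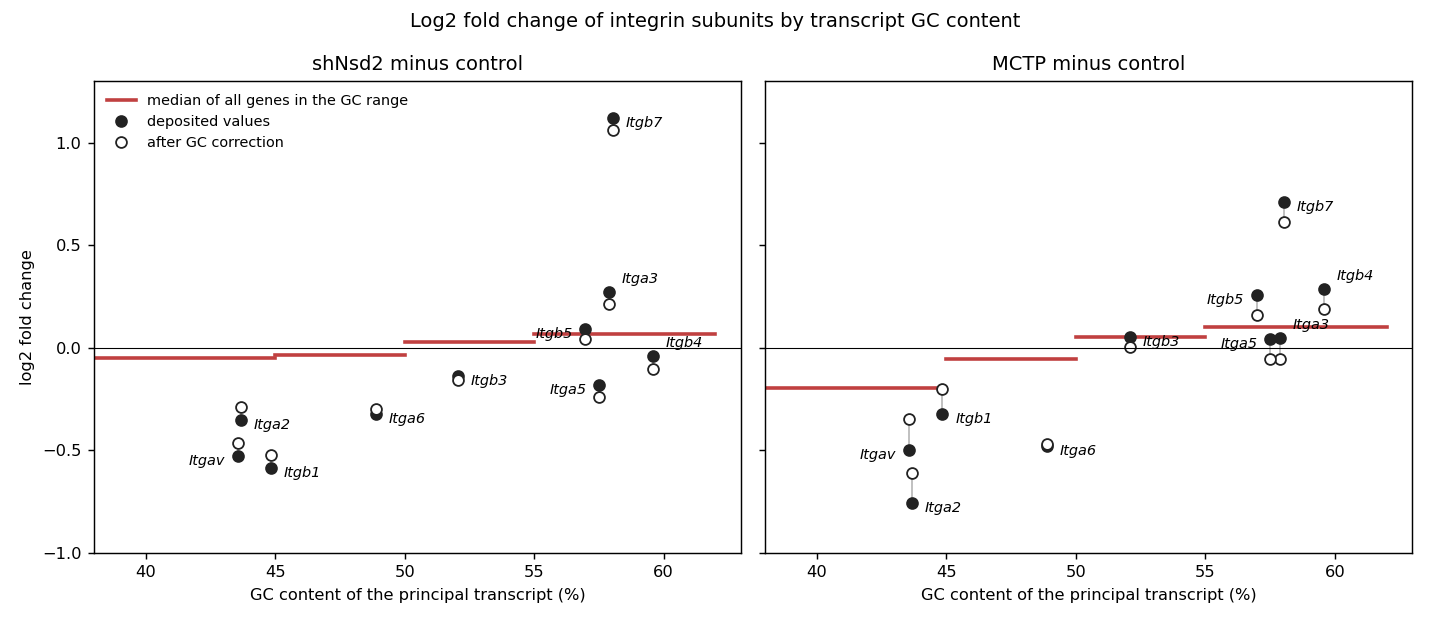
Log2 fold change of each integrin subunit against control (vertical) by the GC content of its principal transcript in percent (horizontal), for shNsd2 and MCTP; filled points are deposited values, open points values after GC correction, and the red line is the median of all genes in each range of GC content. The 4 subunits under 50% GC lie below 0 in both panels before and after correction, and Itgb7 (not tested) lies highest in both.

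The fold changes shift which subunits make up the pool of transcripts. As a share of the length-scaled linear level of the 5 beta subunits, Itgb1 took 68.4% ± 1.83 in control, 58.9% ± 4.41 in MCTP and 57.4% ± 1.49 in shNsd2 cells (SD, n = 3). The share of Itgb7 was 2.11% ± 0.107 in control, 3.73% ± 0.517 in MCTP and 5.79% ± 0.132 in shNsd2 cells. Even where it was highest, Itgb7 was thus a minor beta subunit by transcript level, below Itgb3 at 6.11% ± 0.184 in shNsd2 cells. Itgb4 held 15.1%, 19.9% and 18.6% of the beta transcripts in control, MCTP and shNsd2 cells.

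Among the 5 alpha subunits the lead passed from Itga6 to Itga3. Itga6 made up 43.7% ± 0.946 of the length-scaled alpha level in control, 36.1% ± 2.45 in MCTP and 36.6% ± 1.5 in shNsd2 cells. Itga3 made up 37.6% ± 1.17, 44.9% ± 2.76 and 47.6% ± 1.77 of it in the same groups. For both genes neither treated group overlapped with control. Itga5 had 10.4%, 12.4% and 9.63% of the alpha transcripts, Itgav 6.61%, 5.44% and 4.79%, and Itga2 1.66%, 1.14% and 1.36%. These shares are descriptions of transcript levels and were not tested, and a share can rise because others fall.

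Across the 9 libraries the subunits had a few close companions among the 12228 genes kept in a comparison. The Pearson correlation with Itgb7 was highest for Blcap (0.991), Ankrd13b (0.990), Trp53i11 (0.989), Neurl3 (0.987) and Pigy (0.985). All 5 had the order of groups of Itgb7, with control lowest and shNsd2 highest. Blcap, for example, had log2 levels of 9.79, 9.87 and 9.98 in control, 10.30, 10.27 and 10.38 in MCTP and 10.59, 10.60 and 10.57 in shNsd2 libraries. Among the members, the correlation with Itgb7 was -0.975 for Itgb1, -0.890 for Itgav and 0.820 for Itga3. Such values mostly restate the differences between the 3 groups, from which Itgb7 was chosen, and carry no p.

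The closest companions of Itga5 were Gstz1 (0.996), Lman2l (0.994), Akt2 (0.994), Zxdc (0.988) and Sparc (0.987). They shared its low values in shNsd2 libraries and its dips in control library 1 and MCTP library 2, the libraries of their groups whose values had the lowest correlation with GC content. Akt2, which encodes a kinase of the insulin pathway, had log2 levels of 12.02, 12.16 and 12.21 in control, 12.26, 12.03 and 12.30 in MCTP and 11.88, 11.83 and 11.76 in shNsd2 libraries. Among the members the correlation with Itga5 was highest for Itgb3 (0.909) and Itgb4 (0.768). The GC content of these 5 companions lay between 50.1% and 56.1%, and its part in their likeness was not tested.

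Markers of epithelial type and state moved in the same libraries. Krt15, a keratin of basal epithelium, had log2 levels of 12.53, 12.56 and 12.56 in control, 12.73, 12.44 and 12.68 in MCTP and 11.42, 11.34 and 11.29 in shNsd2 libraries. Krt14, another basal keratin, had log2 levels of 8.78, 8.98 and 8.95 in control, 10.06, 9.91 and 10.30 in MCTP and 9.76, 9.68 and 9.63 in shNsd2 libraries. Krt15 was thus lowest with shNsd2, and Krt14 lay above control in every treated library. Krt15 fell by 1.20 with shNsd2 (adjusted p = 5.65e-07), and its log2 difference was 0.07 with MCTP (adjusted p = 0.520), which turned to -0.03 after GC correction. Krt14 rose by 0.78 with shNsd2 (adjusted p = 2.22e-05) and by 1.19 with MCTP (adjusted p = 2.74e-04). Trp63, which encodes a transcription factor of basal cells, lay at log2 levels of 4.77 to 4.95 and fell by 0.09 with shNsd2 (adjusted p = 0.0464), a call that held only without control library 2 among the 6 fits with a library left out and not after GC correction (adjusted p = 0.517). The summed log2 level of the 3 basal markers was 12.64, 12.68 and 12.68 in control, 12.94, 12.68 and 12.94 in MCTP and 11.83, 11.74 and 11.70 in shNsd2 libraries.

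Epithelial and mesenchymal markers both went down with shNsd2. Of 5 epithelial markers tested 4 fell and none rose, and of 6 mesenchymal markers all 6 fell, where 24.8% of all genes fell. With any library left out 3 or 4 and 4 or 5 of them fell, and 4 of the mesenchymal markers with every library centred on its median. Krt19, a keratin of simple epithelium, fell by 0.34 (adjusted p = 0.00257), Cldn4, which encodes a tight junction protein, fell by 0.39 (adjusted p = 2.38e-04), and Zeb2, which encodes a repressor of epithelial genes, fell by 0.37 (adjusted p = 0.00147). The summed log2 level of the epithelial markers was 17.52, 17.70 and 17.66 in control and 17.49, 17.43 and 17.33 in shNsd2 libraries, and that of the mesenchymal markers 17.62, 17.70 and 17.70 in control and 17.47, 17.49 and 17.40 in shNsd2 libraries. Both sums were lower in every shNsd2 library than in every control library. Tmprss2 fell by 0.17 (adjusted p = 0.0115; 0.0502 without shNsd2 library 1), and of the fibroblast markers Pdgfra rose by 0.13 (adjusted p = 0.00161) and Col1a1 fell by 0.30 (adjusted p = 0.00111).

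With MCTP the same markers went both ways. Of the 5 epithelial markers 2 rose, Krt19 by 0.37 (adjusted p = 0.0392) and Cldn4 by 0.33 (adjusted p = 0.0116), and 1 fell, Cdh1, where 18.0% and 17.2% of all genes rose and fell. The call of Krt19 was lost without any library but MCTP library 2 (adjusted p = 0.0782 to 0.130) and that of Cldn4 without MCTP library 1 (adjusted p = 0.0569). Without MCTP library 1 none of the 5 thus rose and 1 fell, and without MCTP library 2 these were 3 and 1. Of the 6 mesenchymal markers Vim rose by 0.32 (adjusted p = 0.0266) and Zeb1 fell by 0.23 (adjusted p = 0.0407). Without control library 1, 2 or 3 or MCTP library 3 limma called 0 of the 6, with 2 at an unadjusted p under 0.05, and without MCTP library 1 it called 0, with 1 at an unadjusted p under 0.05. The summed log2 level in MCTP libraries was 17.90, 17.67 and 18.04 for the epithelial and 17.94, 17.78 and 17.96 for the mesenchymal markers. Tmprss2 rose by 0.31 (adjusted p = 0.00493), and Col1a1 fell by 0.33 (adjusted p = 0.0105). Against MCTP, shNsd2 cells had lower Krt15 and Krt14, at log2 fold changes of -1.27 and -0.40 (adjusted p = 4.82e-05 and 0.0136), the latter with an adjusted p of 0.0520 without shNsd2 library 3. The part of these markers in the levels of the integrin subunits was not tested.

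The wider adhesion machinery was described by 7 lists of genes, chosen with earlier results of these data known. The shares called are therefore descriptions, and nothing is read from an excess over all genes. With shNsd2, genes of matrix ligands and of laminins mostly fell. Of 15 other matrix ligands tested 13 fell and 1 rose, with a median log2 fold change of -0.34 where that of all genes was 0.00. These 14 are 93.3% of the list, where 47.8% of all genes were called, 24.8% lower. Tnc, which encodes tenascin C, fell by 0.95 (adjusted p = 9.94e-07), the largest fall of the list, from log2 levels of 12.45, 12.40 and 12.53 in control to 11.52, 11.52 and 11.48 in shNsd2 libraries. Thbs1, which encodes thrombospondin, fell by 0.89 (adjusted p = 5.55e-06). Of 9 genes of hemidesmosomes and laminins tested 6 fell and 1 rose, 77.8% in all, with a median of -0.35. Lamb1 and Lamb3, which encode laminin beta chains, had log2 fold changes of -0.42 and -0.39 and were called (adjusted p = 5.32e-05 and 7.21e-04).

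Inside the cell the picture with shNsd2 was mixed. The beta tail list holds 15 genes of proteins that bind integrin tails or act with those that do. Of these genes 1 rose and 6 fell, 46.7% in all, where 23.1% of all genes rose and 24.8% fell. Their median log2 fold change was -0.12, and it was -0.06 without control library 1. Apbb1ip, which encodes an adaptor that brings Rap GTPases to talin, fell by 0.98 (adjusted p = 3.43e-06), and the docking protein gene Dok1 fell by 0.31 (adjusted p = 7.41e-04). Of 23 genes of focal adhesion signalling and actin linkage 5 rose and 8 fell, 56.5% in all, and without shNsd2 library 2 these were 2 and 6. Their median was 0.00, and it lay between -0.06 (after GC correction) and 0.04 (under quantile normalization) when a setting was changed or a library left out. Ptk2b, which encodes a kinase related to focal adhesion kinase, fell by 0.44 (adjusted p = 3.70e-05), and Tns1, which encodes tensin, fell by 0.42 (adjusted p = 1.38e-04). Of 10 surface partners and trafficking genes 2 rose and 5 fell, 70% in all, with a median of -0.14, led by the tetraspanin gene Cd82 at -0.46 (adjusted p = 1.04e-04) and the caveolin gene Cav1 at -0.41 (adjusted p = 9.25e-05). Both genes of the list of Itgb7 partners that were tested, Vcam1 and Cdh1, fell, with a median of -0.47.

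Of 17 further integrin subunits 7 were in the table and 5 were tested. With shNsd2 2 fell and none rose, 40% in all where 47.8% of all genes were called, and the median log2 fold change was -0.15. It was -0.08 without control library 1. After GC correction 4 fell, in a setting that called more of all genes as well. Itgb2, the beta subunit of leukocyte integrins, had log2 levels of 7.46, 7.50 and 7.54 in control, 7.45, 7.27 and 7.22 in MCTP and 7.03, 6.94 and 7.01 in shNsd2 libraries. The shNsd2 libraries were lowest, and Itgb2 fell by 0.51 (adjusted p = 3.01e-05), whereas Itgb7 was higher in these libraries. Itga7, which encodes a laminin-binding subunit best known from muscle, fell by 0.48 (adjusted p = 1.10e-05).

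With MCTP the matrix ligands divided, and more of the focal adhesion genes rose than fell. Of the 15 other matrix ligands 5 rose and 4 fell, 60% in all, where 35.2% of all genes were called, 18.0% higher and 17.2% lower. Without control library 3 these were 3 and 3, or 40%. Their median log2 fold change was -0.03 where that of all genes was -0.01. It was 0.00 under quantile normalization or median centring, -0.06 without MCTP library 1 and 0.01 without MCTP library 2, and after GC correction it was -0.13, with 5 up and 7 down. Spp1, which encodes osteopontin, a ligand of Itgav pairs, fell by 1.05 (adjusted p = 7.86e-04), and Cyr61, which encodes a matricellular ligand of the same receptors, rose by 0.95 (adjusted p = 1.16e-04). Of 10 hemidesmosome and laminin genes 1 rose and 4 fell, with a median of -0.15, and without control library 1, 2 or 3 or MCTP library 3 none rose and 3 fell. Lamc1, which encodes a laminin gamma chain, fell by 0.51 (adjusted p = 8.74e-04). Of the 23 focal adhesion genes 7 rose and 2 fell, 39.1% in all, with a median of 0.14. Without MCTP library 2 these were 16 and 3, and after GC correction 9 and 4 with a median of 0.07. Both settings changed the calls of all genes as well, which numbered 2046 to 7384 with a library left out. Lims2, which encodes a partner of integrin-linked kinase, rose by 0.81 (adjusted p = 0.00130), and Rsu1, which encodes a protein of the same complex, by 0.43 (adjusted p = 0.00103).

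The 15 genes of the beta tail list gave 2 higher and 4 lower with MCTP, 40% in all where 35.2% of all genes were called. Their median log2 fold change was -0.01, and it lay between -0.04 (after GC correction) and 0.03 (under quantile normalization) when a setting was changed or a library left out. Without control library 1 or 2 or MCTP library 1 none of them rose and 2 fell, without control library 3 these were 1 and 2, and without MCTP library 2 they were 6 and 6. Apbb1ip fell by 0.51 (adjusted p = 0.00112) and Dab2, which encodes an endocytic adaptor, fell by 0.46 (adjusted p = 0.00141). Of the 10 surface partners 2 rose and 3 fell, with a median of -0.13. Without control library 1 none of these rose and 3 fell, without control library 2 or MCTP library 1 none rose and 2 fell, and after GC correction 4 rose and 4 fell, with a median of 0.02. Cd47, which encodes a partner of Itgb3, fell by 0.38 (adjusted p = 0.00125) and Cd82 fell by 0.37 (adjusted p = 0.00950). Vcam1 and Cdh1 had a median of -0.33. Of the 5 further integrin subunits tested 1 rose and none fell, with a median of 0.04 that turned to -0.01 under quantile normalization or without control library 2, to -0.03 after GC correction and to -0.07 without MCTP library 2. The gene that rose was Itga2b, which encodes the platelet alpha subunit, at 0.25 (adjusted p = 0.00576), and its call was lost after GC correction, at 0.15 (adjusted p = 0.0689). Its log2 levels were only 4.94 to 5.34 in the 9 libraries. After GC correction 1 other gene rose, Itgb8, which encodes a further beta partner of Itgav, at 0.25 (adjusted p = 0.00564; 0.04 before correction). Itgb2 and Itga7 then fell, with log2 fold changes of -0.25 and -0.26 (adjusted p = 0.0107 and 8.19e-04), and without MCTP library 1 there were 1 higher and 1 lower call. These settings and left-out libraries were chosen for the lists and the markers after seeing the data.

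Set directly against MCTP, shNsd2 cells had lower levels of many matrix and focal adhesion genes. Of the 15 other matrix ligands 9 were lower and none higher, with a median log2 fold change of -0.31, and without MCTP library 2 these were 10 and 2. Without MCTP library 1 or shNsd2 library 3 they were 6 and 0, or 40%. Of the 23 focal adhesion genes 12 were lower and 2 higher, with a median of -0.19, and after GC correction 13 were lower and 7 higher. With all libraries and without correction 60% and 60.9% of these lists were called, where 43.2% of all genes were called, 22.6% lower. Ctgf, which encodes a matricellular protein, differed by -1.55 (adjusted p = 1.26e-05), from log2 levels of 11.59, 11.50 and 11.59 in MCTP to 9.998, 10.09 and 9.93 in shNsd2 libraries. Thbs1 differed by -1.46 (adjusted p = 2.07e-05), Ptk2b by -0.81 (adjusted p = 1.10e-04) and Lims2 by -0.81 (adjusted p = 7.00e-04). Among hemidesmosome and laminin genes 4 of 10 were lower and none higher, with a median of 0.03. These 4 include Lama3, at -0.12, with log2 levels of only 3.67 to 3.85 around the filter value of 3.78. Its call was lost after GC correction (adjusted p = 0.0844). In the whole list 3 genes were lower and 2 higher after GC correction, with a median of 0.06. The median was 0.01 without MCTP library 2 and 0.00 without MCTP library 3. Lamb2 and Lamb3 differed by -0.45 and -0.31 (adjusted p = 5.44e-04 and 0.00326). Of the 5 further integrin subunits 3 were lower and none higher, with a median of -0.32, among them Itga2b at -0.36 (adjusted p = 1.72e-04) and Itgb2 at -0.32 (adjusted p = 0.00776).

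The remaining lists had calls on both sides, where 43.2% of all genes were called, 20.6% higher and 22.6% lower. Of 15 genes of the beta tail list 2 were higher and 4 lower in shNsd2 than in MCTP cells, 40% in all, with a median log2 fold change of -0.06. Without MCTP library 2 these were 4 and 8, with a median of -0.13, and without MCTP library 1 or shNsd2 library 3 they were 1 and 2. Apbb1ip differed by -0.47 (adjusted p = 4.72e-04). Of 10 surface partners 3 were higher and 2 lower, 50% in all, with a median of -0.09. Without MCTP library 2 these were 3 and 5, and after GC correction 3 and 4, with a median of -0.13. Cav1 differed by -0.47 (adjusted p = 0.00114) and the tetraspanin gene Cd81 by -0.40 (adjusted p = 0.00238). Of the Itgb7 partners Vcam1 was lower, at -0.40 (adjusted p = 7.11e-04), and Cdh1 higher, at 0.14 (adjusted p = 0.0298), for a median of -0.13. The call of Cdh1 held in only 1 of 6 fits that left out a library, that without MCTP library 2, and not under quantile normalization or median centring.

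**Figure D3:**
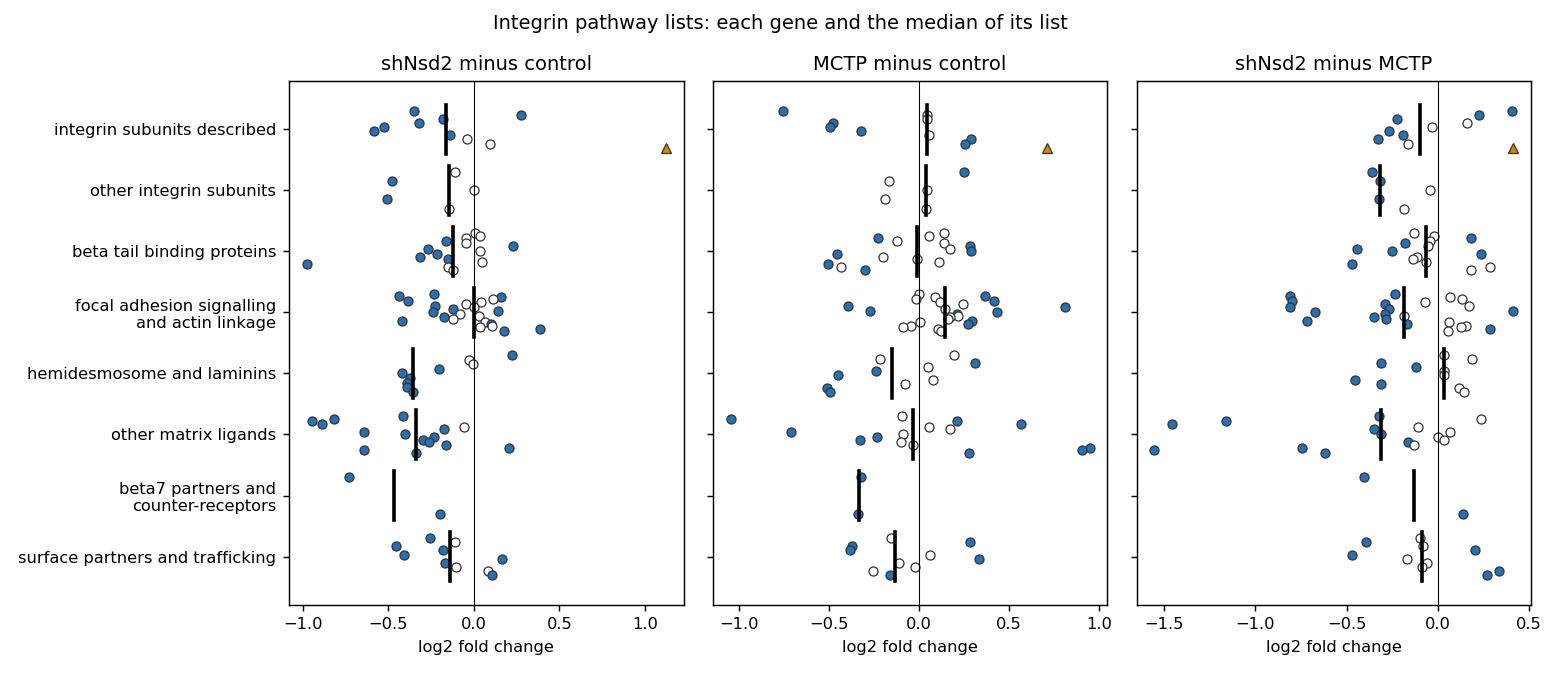
Log2 fold change of each gene (horizontal) in the 10 integrin subunits and 7 lists of related genes (vertical), for shNsd2 against control, MCTP against control and shNsd2 against MCTP; blue points were called, white points were not, the orange triangle is Itgb7, which was not tested, and black bars are list medians. Most of the 15 other matrix ligands lie left of 0 with shNsd2, where 13 fell, and on both sides with MCTP, where 5 rose and 4 fell.

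Promoter windows of 300 bases, most of them before the gene start, were taken from RefSeq on GRCm38.p6. Of the 10 members 7 matched, with 8 windows because Itga3 has a pair, and Itga6, Itgb3 and Itgb4 have no entry. Both strands were searched for a GC box, the letters GGGCGG, found in 35.7% of all 32851 windows of 300 bases, for an AP-1 motif, TGANTCA, in 7.81%, and for TATAAA, in 13.6%. A match only describes the letters and shows no binding. Of the 7 members, Itgb7 alone has none of these letters in its window, and the other 6 have at least 1 GC box. Itga3 also has the AP-1 letters in 1 of its windows, and TATAAA is in none of the 8. The windows of Itgb7 and Itga5 are shown for the member with the largest difference and for the fibronectin receptor subunit. Itga5 was called with shNsd2 and not with MCTP. Those of Itgb1 and Itgav are shown as examples of members that fell with either treatment. Itga2 also fell with both, and its window (59.3% GC, 1 GC box) is not shown. The windows shown lie, in the order named, at chr15:102231886-102232185 (- strand, 56.3% GC), chr15:103366742-103367041 (- strand, 58.7%), chr8:128685404-128685703 (+ strand, 67.3%) and chr2:83724147-83724446 (+ strand, 67.3%), where the median of all windows is 52.7%. Capitals mark the GC box or its reverse complement, 2 in Itga5 and 1 each in Itgb1 and Itgav:
Itgb7: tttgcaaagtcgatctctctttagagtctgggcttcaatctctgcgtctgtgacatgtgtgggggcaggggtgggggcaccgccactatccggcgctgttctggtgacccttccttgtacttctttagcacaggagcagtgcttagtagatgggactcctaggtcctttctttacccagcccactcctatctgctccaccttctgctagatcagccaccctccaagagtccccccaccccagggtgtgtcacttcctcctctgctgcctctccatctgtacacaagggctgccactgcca
Itga5: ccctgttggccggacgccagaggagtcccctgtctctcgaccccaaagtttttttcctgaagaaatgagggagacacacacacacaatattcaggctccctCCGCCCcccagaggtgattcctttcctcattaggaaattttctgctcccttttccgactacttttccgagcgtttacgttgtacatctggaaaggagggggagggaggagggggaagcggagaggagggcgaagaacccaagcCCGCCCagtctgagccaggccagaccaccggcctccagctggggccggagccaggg
Itgb1: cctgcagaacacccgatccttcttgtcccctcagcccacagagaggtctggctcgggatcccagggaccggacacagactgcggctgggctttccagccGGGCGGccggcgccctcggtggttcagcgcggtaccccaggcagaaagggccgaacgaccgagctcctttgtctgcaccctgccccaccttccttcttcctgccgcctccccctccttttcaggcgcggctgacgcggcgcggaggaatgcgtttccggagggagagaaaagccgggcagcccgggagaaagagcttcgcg
Itgav: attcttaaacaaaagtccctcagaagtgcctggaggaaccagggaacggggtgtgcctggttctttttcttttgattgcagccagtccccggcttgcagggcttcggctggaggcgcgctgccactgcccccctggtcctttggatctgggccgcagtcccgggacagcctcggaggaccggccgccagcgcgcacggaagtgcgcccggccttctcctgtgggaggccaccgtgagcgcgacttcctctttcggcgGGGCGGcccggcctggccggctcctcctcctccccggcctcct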

How the data were processed

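RNA-seq libraries of NPK cells, 3 each of control, MCTP and shNsd2 cells, were grouped by their titles. The authors deposited 1 table of log2 values for 12842 genes, with libraries already scaled to each other; its header names no transform. The submitters' processing notes name bcl2fastq 1.8.4, TopHat, Cufflinks, DESeq, DESeq2 and the build mm9 without their roles, and the paper's methods state DESeq2 normalization and variance stabilization for its tumour profiles only. Of 12 columns of values, 3 could be matched to no described sample and were left out. The values ranged from 1.63 to 18.47 and are drawn together at the low end, where fold changes are understated. No counts are given, so depth is unknown, precision rests on the replicates (Pearson correlation 0.996 to 0.9998), and limma on log2 values, the plan for a table without counts, was used in place of a count test.

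A gene was kept in a comparison if 3 or more of its 6 libraries exceeded 3.78, which is the median of the lowest 10% of values (12205 genes for shNsd2, 12216 for MCTP and 12217 for shNsd2 against MCTP). Groups were compared with limma 3.58.1 in R 4.3.3 (lmFit, eBayes with a trend); p-values were adjusted by Benjamini-Hochberg over the genes kept, and the threshold was 0.05. Members and lists were chosen with earlier results of these data known. Itgb7 was not tested. Named were the members, Whsc1, the 2 called genes of each list with the largest absolute log2 fold change in each comparison, the 5 genes most correlated with Itgb7 and with Itga5, and genes within 100 kb of Itgb7; some other list genes and markers are named where they check a label or moved with the groups.

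Coordinates, GC content and lengths are those of GENCODE M21 on GRCm38, not mm9, matched by Ensembl identifier (12513 genes, 97.4%). The GC correction subtracted a lowess curve (span 0.3) of each library's deviation on GC content, and also removes real change that follows GC content. The settings varied were the filter (none), a fit of all 9 libraries together, a block for the replicate number, quantile normalization, median centring, eBayes without a trend, GC correction, each library left out, single MCTP libraries or shNsd2 library 1 alone, and the longest transcript. The procedures were tested on simulated data. Python 3.11.15 and matplotlib 3.10.9 made the figures. Some alleles of the mice and some genes of the lists are not reported here.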

Additional observations from a re-analysis of the deposited data

How the results depend on the processing

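Of the log2 fold changes of the 9 tested members under other settings, 122 of those with shNsd2, 118 with MCTP and 107 between shNsd2 and MCTP kept their direction and their side of the threshold; 3, 21 and 33 lost the call, and 1, 0 and 9 gained it. The cause was not tested, except that fits on fewer libraries have less to estimate the spread from. Directions turned only for differences that were not called, and Itgb7 kept its direction in every setting run. Itga3 with MCTP was -0.043 under quantile normalization, -0.053 after GC correction and -0.063 for MCTP library 2 alone; Itga5 with MCTP was -0.057 after GC correction and -0.070 for MCTP library 2 alone. Itgav between shNsd2 and MCTP ranged from -0.14 (without MCTP library 3) to 0.10 (without MCTP library 2) with a library left out, at 0.01 without shNsd2 library 2, and was 0.0067 for MCTP library 1 alone, 0.19 for MCTP library 3 alone and -0.29 for MCTP library 2 alone, where only the last was called (adjusted p = 0.0165).

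With each library left out, the genes called numbered 4340 to 6018 with shNsd2 (5836 with all), 2046 to 7384 with MCTP (4305 with all) and 3391 to 7781 between them (5276 with all); members called numbered 7 to 7, 2 to 6 and 1 to 8. With shNsd2 library 1 alone, 2851 genes were called against control and 634 against MCTP, in the latter 0 of the 9 members by limma, and 0 also at an unadjusted p under 0.05. With MCTP library 1, 2 or 3 alone, 4628, 2120 and 6434 genes and 6, 2 and 6 members were called against control. In these fits the lone library was assumed to vary like the other group. With shNsd2 library 1 alone, the log2 differences from control were -0.16 for Itga5 and -0.13 for Itgb3, and neither was called. DESeq2 and edgeR were not run, since the table holds no counts, and without counts the depth cannot limit any statement by a known amount.

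Libraries of the same replicate number did not consistently deviate together, and the signs were mixed. The correlations for numbers 1, 2 and 3 were -0.49, 0.247 and -0.511 between control and shNsd2, -0.60, -0.568 and 0.612 between control and MCTP, and 0.353, -0.632 and -0.805 between shNsd2 and MCTP. With replicate numbers entered as a block, 4515, 3399 and 3794 genes and 6, 6 and 2 members were called with shNsd2, with MCTP and between them.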
